A study of Homo sapiens with 6 samples.

Results

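The peaks described here are the places where RNA recovered with DDX5 was enriched and the summit fell in an exon of a pseudogene. DDX5 is a DEAD-box RNA helicase that takes part in splicing, microRNA processing and transcription. It was pulled down with an antibody from nuclear extracts of RH30, an established cell line of alveolar rhabdomyosarcoma, a childhood tumour of the muscle lineage, and the co-precipitated RNA was sequenced (RIP-seq). The cells carry the PAX3-FOXO1 fusion, and the labels name no treatment. The 6 samples of the series were 3 immunoprecipitates and 3 INPUT samples made without an antibody. All 6 came from this 1 line, and the labels number them as replicates. The INPUT samples were not analysed here, and no RNA level stands beside the peaks. A summit is the base of highest enrichment in a peak. It was kept if it lay in an exon of a GENCODE version 44 gene whose type contains the word pseudogene and in no exon of a protein-coding or long non-coding RNA (lncRNA) gene. This gave 501 of 93198 peaks, namely 106 of 23715 in the list of replicate 1, 81 of 23651 in that of replicate 2 and 314 of 45832 in that of replicate 3. Depth behind these lists is unknown, and the list of replicate 3 was the longest. The muscle regulators MYOD1, MYOG and MYF5 and the muscle filament gene DES each had an exonic peak in all 3 lists.

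Pseudogenes are copies or remnants of genes that have lost the ability to make the original protein. Processed pseudogenes arise when a spliced messenger RNA is copied into DNA and inserted elsewhere, so they lack introns and usually a promoter. Unprocessed pseudogenes come from duplicated DNA and keep the exon and intron layout, and unitary pseudogenes are genes that decayed without leaving a working copy. Genes with abundant messenger RNA in the germ line, such as those of ribosomal proteins, have left the most processed copies. A young copy can be identical to its source over the length of a sequencing read, and such a read fits both places equally well. How reads that fit several places were treated is not given in the sources used here. The library kit did not keep the strand, so RNA from either strand of a pseudogene was counted alike.

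The sequences below are windows that hold a summit and 50 bases on each side of it, from pseudogenes that had a peak in every list, except ACTBP2. They were read from GRCh38 and written 5′ to 3′ in the annotated direction of the pseudogene. All are summits of replicate 3, except that of KRT42P, which is of replicate 2. Each was set against the canonical transcripts of all protein-coding genes, and the best alignment is called the match. Capitals mark bases that differ from the match or lie outside its alignment. The first set is shown because every window in it was identical to the coding sequence of a protein-coding gene over its whole length, so that it carries no base by which a read could be told from that transcript. In this set the windows of PHC1P1, EIF4BP6 and ENSG00000218418 lie at summits found in replicate 3 alone.
PHC1P1, match PHC1, chr12:55414299-55414399 (minus strand): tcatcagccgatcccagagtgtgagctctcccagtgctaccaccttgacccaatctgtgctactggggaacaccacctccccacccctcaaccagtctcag
ENSG00000186076, match PGAM1, chr12:93641042-93641142 (minus strand): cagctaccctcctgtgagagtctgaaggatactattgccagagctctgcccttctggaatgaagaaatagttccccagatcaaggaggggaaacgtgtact
POM121B, match POM121, chr7:73295766-73295866 (plus strand): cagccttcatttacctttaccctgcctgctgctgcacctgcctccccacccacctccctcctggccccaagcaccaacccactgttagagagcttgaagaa
RBMS2P1, match RBMS2, chr12:94424791-94424891 (minus strand): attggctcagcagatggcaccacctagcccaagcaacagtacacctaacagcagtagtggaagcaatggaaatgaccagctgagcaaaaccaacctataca
WASF4P, match WASF2, chrX:47803318-47803418 (plus strand): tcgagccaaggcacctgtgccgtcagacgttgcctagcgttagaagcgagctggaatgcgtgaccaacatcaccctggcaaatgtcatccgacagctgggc
EIF4BP6, match EIF4B, chr7:104667979-104668079 (plus strand): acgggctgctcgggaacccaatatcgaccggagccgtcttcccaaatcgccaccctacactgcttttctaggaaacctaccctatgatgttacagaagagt
ENSG00000218418, match ARHGAP21, chr6:80069514-80069614 (minus strand): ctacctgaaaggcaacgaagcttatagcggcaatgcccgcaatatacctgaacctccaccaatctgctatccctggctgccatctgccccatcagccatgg

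PHC1 encodes a Polycomb group protein, PGAM1 a glycolytic enzyme, POM121 a nuclear pore protein, RBMS2 an RNA-binding protein, and WASF2 a regulator of actin assembly. EIF4B encodes a translation initiation factor and ARHGAP21 a GTPase-activating protein.

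The second set holds windows with few or many differences. It is shown to give the range of divergence at a summit. YBX1P1 is a copy of a cold-shock RNA-binding protein gene and ACTBP2 a copy of the beta-actin gene; ACTBP2 had a peak in replicate 3 only.
PHC1P1, match PHC1, chr12:55413724-55413824 (minus strand): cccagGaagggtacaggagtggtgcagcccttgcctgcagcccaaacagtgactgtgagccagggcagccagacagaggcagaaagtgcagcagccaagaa
YBX1P1, match YBX1, chr14:66013346-66013446 (minus strand): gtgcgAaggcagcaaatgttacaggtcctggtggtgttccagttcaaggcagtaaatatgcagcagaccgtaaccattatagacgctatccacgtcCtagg
ACTBP2, match ACTB, chr5:77785653-77785753 (plus strand): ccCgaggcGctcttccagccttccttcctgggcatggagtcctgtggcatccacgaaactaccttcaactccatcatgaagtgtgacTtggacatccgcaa
MPHOSPH6P1, match MPHOSPH6, chr1:22068509-22068609 (minus strand): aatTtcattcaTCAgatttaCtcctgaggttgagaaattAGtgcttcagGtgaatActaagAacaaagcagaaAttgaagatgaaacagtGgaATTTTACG
MPHOSPH6, aligned stretch of its transcript: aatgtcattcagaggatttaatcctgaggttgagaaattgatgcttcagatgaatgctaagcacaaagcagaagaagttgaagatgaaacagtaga

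The windows of PHC1P1, YBX1P1 and ACTBP2 held 1, 2 and 3 mismatches against their matches. That of YBX1P1 lies at the lower-ranked of its 2 peaks in replicate 3, with a fold of 2.10, and not at its recurring summit. The window of MPHOSPH6P1, a copy of a gene whose product works with the RNA exosome, held 12 mismatches and a gap within the aligned stretch, and 8 of its bases lay outside the alignment.

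The third set had neither a match nor a close copy. KRT42P is an unprocessed keratin pseudogene and TMEM198B a unitary pseudogene of a membrane protein gene.
KRT42P, chr17:41633842-41633942 (minus strand): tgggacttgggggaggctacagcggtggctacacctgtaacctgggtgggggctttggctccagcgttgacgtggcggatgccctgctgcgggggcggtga
TMEM198B, chr12:55830641-55830741 (plus strand): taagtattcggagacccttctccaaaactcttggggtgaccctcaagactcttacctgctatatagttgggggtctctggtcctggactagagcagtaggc

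Pseudogene exons held few peaks. Peaks with a pseudogene summit made up 0.447%, 0.342% and 0.685% of replicates 1, 2 and 3, a mean of 0.492% ± 0.176 (SD, n = 3). Pseudogene exons outside protein-coding and lncRNA exons cover 10.6 Mb, or 6.80% of all exon bases. They held 9.96, 7.61 and 29.5 peaks per Mb in replicates 1, 2 and 3. Protein-coding exons held 179, 130 and 330 peaks per Mb, and lncRNA exons outside protein-coding exons held 10.9, 12.2 and 18.4. Pseudogene exons thus lay far below protein-coding exons in each list, and on both sides of lncRNA exons depending on the list.

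Processed types held 78, 57 and 238 peaks in replicates 1, 2 and 3, which is 73.6%, 70.4% and 75.8% of the pseudogene peaks. These shares are near the 71.5% of annotated pseudogenes, and of pseudogene exon length, that are processed. Unprocessed types held 20, 9 and 53 peaks, and unitary types 8, 15 and 23. Relative to their exon length, unitary pseudogenes held the most, with 13.7, 25.6 and 39.3 peaks per Mb, against 10.3, 7.49 and 31.3 for processed and 8.58, 3.86 and 22.7 for unprocessed ones. That order held in each list. No summit fell in any of the 479 ribosomal RNA pseudogenes or in the 250 pseudogenes of immunoglobulin, T cell receptor and other types. Their exons cover only 0.054 and 0.074 Mb. At the peaks per Mb of all pseudogene exons, few summits would fall in so little sequence.

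**Figure D1:**
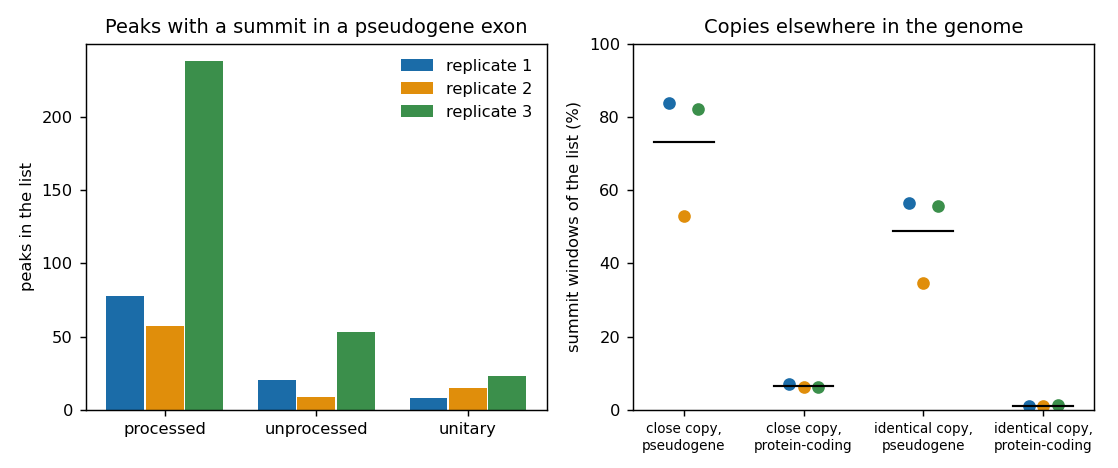
Left, the number of peaks with a summit in a pseudogene exon in each of the 3 lists, by kind of pseudogene, as bars from 0. Right, the percent of summit windows with a close or an identical copy elsewhere in the genome, as 1 point per list with the mean as a line; the pseudogene points lie between 34.6% and 84.0% and the protein-coding points at 6.95% or below.

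Few pseudogenes recurred. Of 14626 annotated pseudogenes, 265 showed a peak in any list (1.81%) and 22 showed one in every list (0.15%), while 67 had peaks in 2 lists and 176 in 1. The lists named 87, 70 and 219 pseudogenes. By kind, 210 of 10459 processed (2.01%), 42 of 3191 unprocessed (1.32%) and 13 of 247 unitary pseudogenes (5.26%) had a peak in any list. The number with a peak in every list was 17, 3 and 2. Without replicate 1, 2 or 3 in turn, between 26 and 64 pseudogenes had a peak in both remaining lists.

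Peaks of different lists that shared at least 1 base were merged into regions. Of 365 regions whose best summit was in a pseudogene, 29 held a peak of every list (7.95%), 74 held peaks of 2 lists and 262 of 1. Over all 60437 regions the share found in every list was 13.6%, for the 41671 regions of protein-coding exons it was 17.9%, and for the 982 lncRNA regions 8.76%. Counted by peak, 26.4%, 35.8% and 8.92% of the pseudogene peaks of replicates 1, 2 and 3 touched a peak in both other lists. The values for peaks in protein-coding exons were 40.7%, 55.0% and 21.5%. The log2 ratio was −0.84 ± 0.37 (SD, n = 3), and the share was lower at pseudogenes in 3 of 3 lists. Without replicate 2, with peaks of replicates 1 and 3 set against each other, it was −0.33 ± 0.47 (SD, n = 2). The exact two-sided sign-flip permutation test over the 3 lists gave p = 0.25, the smallest value that 3 lists allow, which is also the p of every other ratio below that is said to have the same sign in 3 of 3 lists. The labels call the immunoprecipitates biological replicates and do not say how the cultures were kept apart.

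The fold enrichment given below is the authors' own value for each peak over the background of their peak caller, and a q-value is the false discovery rate it assigned. Both describe peaks within a list. The median fold of pseudogene peaks was 2.85, 3.11 and 3.24 in replicates 1, 2 and 3, and that of protein-coding exon peaks 2.56, 2.92 and 2.84. The log2 ratio of 0.15 ± 0.049 (SD, n = 3) was above 0 in 3 of 3 lists. Pseudogene peaks were narrower, with a median of 140.5, 165 and 123 bases against 176, 205 and 195, a log2 ratio of −0.43 ± 0.20 (SD, n = 3), again in 3 of 3 lists. Among peaks with a fold of at least 4 the lists no longer all had these signs, with a log2 ratio of 0.041 ± 0.073 for the fold and −0.28 ± 0.66 for the width (SD, n = 3). The share of peaks with a fold of at least 4 was 12.3%, 14.8% and 25.8% at pseudogenes, against 11.4%, 24.7% and 19.5% of all peaks, so it was lower in replicate 2 and higher in replicates 1 and 3. GC content in the summit windows differed by 0.59 percentage points ± 0.44 (SD, n = 3), and this sign was lost among peaks with a fold of at least 4, where the difference was −2.97. The median fold of processed and of unprocessed pseudogenes differed by a log2 ratio of −0.090 ± 0.11 (SD, n = 3), which turned to 0.017 at a fold of at least 4 and to 0.11 without peaks on shared background values.

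The 22 pseudogenes with a peak in every list were led, among processed ones, by TUBBP1, a copy of the beta-tubulin gene TUBB, when ranked by the mean percentile of their best q-value. The fold of its highest-ranked peak was 2.65, 3.55 and 3.99 in replicates 1, 2 and 3. RPL7AP6, a copy of the ribosomal protein gene RPL7A inside SMOC1, had 2.56, 3.76 and 3.50. Its relative RPL7AP66, inside an lncRNA gene, had 2.44, 3.16 and 3.41. In these 3 copies replicate 1 was the lowest. WASF4P had 3.28, 3.00 and 4.14, with the summit at the same base in all 3 lists. ENSG00000186076, the PGAM1 copy, had 3.34, 4.97 and 4.70, and its best summits lay within 3 bases of each other. HMGB1P5, a copy of the chromatin protein gene HMGB1, had 2.12, 3.24 and 2.25, with best summits up to 388 bases apart. A merged region of 205 bases in HMGB1P5 held a peak of every list. LSM12P1, a copy of an RNA-binding Lsm protein gene inside UNC5D, had 2.81, 3.78 and 2.22, with best summits within 3 bases of each other. Both of these were highest in replicate 2.

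DUXAP10, a transcribed copy related to the double homeobox gene family that has been studied as a regulatory RNA in tumours, had 2.77, 3.30 and 3.65. Its best summits were 10791 bases apart, so the 3 lists do not name 1 common place in it. YBX1P1 had 1.98, 3.08 and 2.05 within 19 bases, and RBMS2P1, inside CEP83, had 2.85, 2.53 and 3.25 within 9 bases. EIF4BP6, inside LHFPL3, had 2.11, 2.18 and 3.83, but its best summits were 1117 bases apart. MPHOSPH6P1, inside CDC42, was the weakest of the 22, with 1.61, 1.85 and 1.81. SMPD4BP, a copy related to the sphingomyelinase gene SMPD4, had 2.13, 3.12 and 2.35. Over all 22, the best summits of the 3 lists lay within 25 bases of each other in 9 pseudogenes and over 500 bases apart in 7.

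Among the unprocessed and unitary pseudogenes with a peak in every list, TMEM198B ranked first with folds of 2.15, 4.33 and 3.93. It held 1, 3 and 6 peaks. The best summits of TMEM198B were up to 762 bases apart. LRRC37A4P, a copy within a segmental duplication of chromosome 17, had 3.97, 3.43 and 3.90, a mean of 3.77 ± 0.29 (SD, n = 3). These values belong to best summits up to 709 bases apart, so the SD is not that of 1 common place. KRT42P had 3.27, 9.57 and 4.99, a mean of 5.95 ± 3.26 (SD, n = 3), the highest mean and the widest spread of the 22. POM121B had 2.92, 5.29 and 6.30, with best summits within 25 bases. CENPBD1P, a unitary pseudogene related to DNA-binding centromere protein genes, had 3.29, 2.48 and 4.44. KRT42P and LRRC37A4P lie inside lncRNA genes, and POM121B and CENPBD1P in no other gene body.

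**Figure D2:**
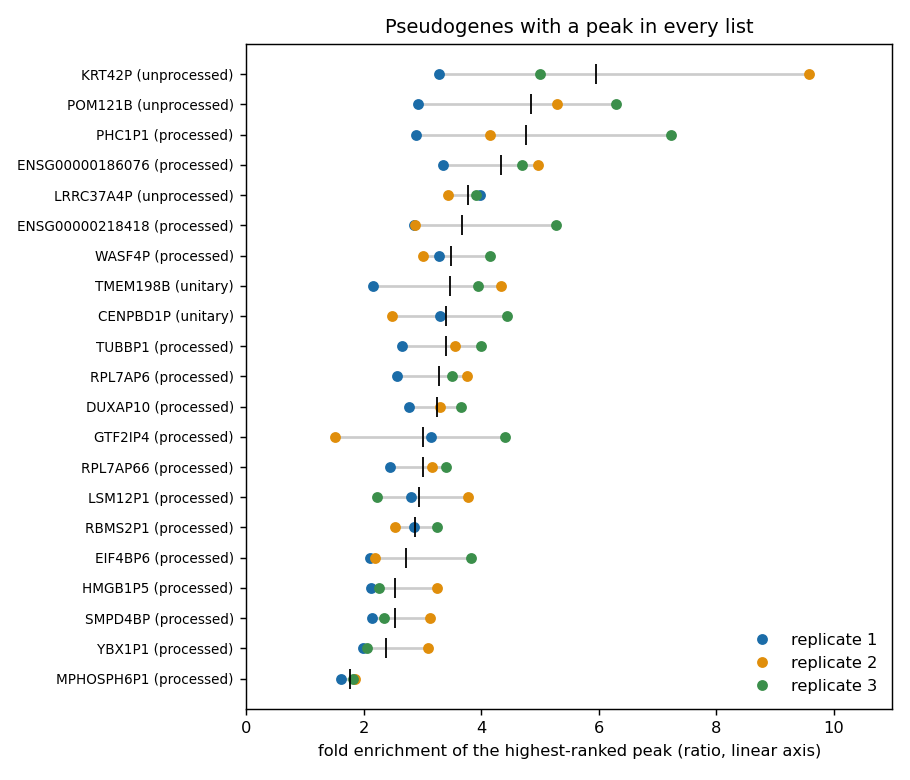
Fold enrichment (ratio, linear axis from 0) of the highest-ranked peak of 21 of the 22 pseudogenes with a peak in every list, 1 point per list, with the mean as a tick and the range as a line. KRT42P spans 3.27 to 9.57, while MPHOSPH6P1 spans 1.61 to 1.85.

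PHC1P1 held the most peaks of any pseudogene, with 2, 3 and 6 peaks in replicates 1, 2 and 3. The folds of its highest-ranked peak were 2.88, 4.14 and 7.24, a mean of 4.75 ± 2.24 (SD, n = 3). That of replicate 3 lay at another place than those of replicates 1 and 2, so the SD is not that of 1 common place. The pseudogene lies at chr12:55411727-55414787 on the minus strand, in no other gene body. Measured from its annotated 5′ end, a summit at base 1045, 1013 and 1013 in replicates 1, 2 and 3, and another at base 1363, 1368 and 1364, recurred in all lists. The folds were 2.881, 4.143 and 3.445 at the first place and 3.595, 3.356 and 5.967 at the other. A summit at base 2820 in replicate 2 and at base 2802 in replicate 3 was shared by those lists. The peak with the highest fold, 7.24 at base 438, was in replicate 3 alone. Of 11 summit windows, 9 were identical to PHC1 and the other two, which lie at base 1013, differed from it by 1 base. The matching place in PHC1 lay in no peak of the same list for any of the 11.

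**Figure D3:**
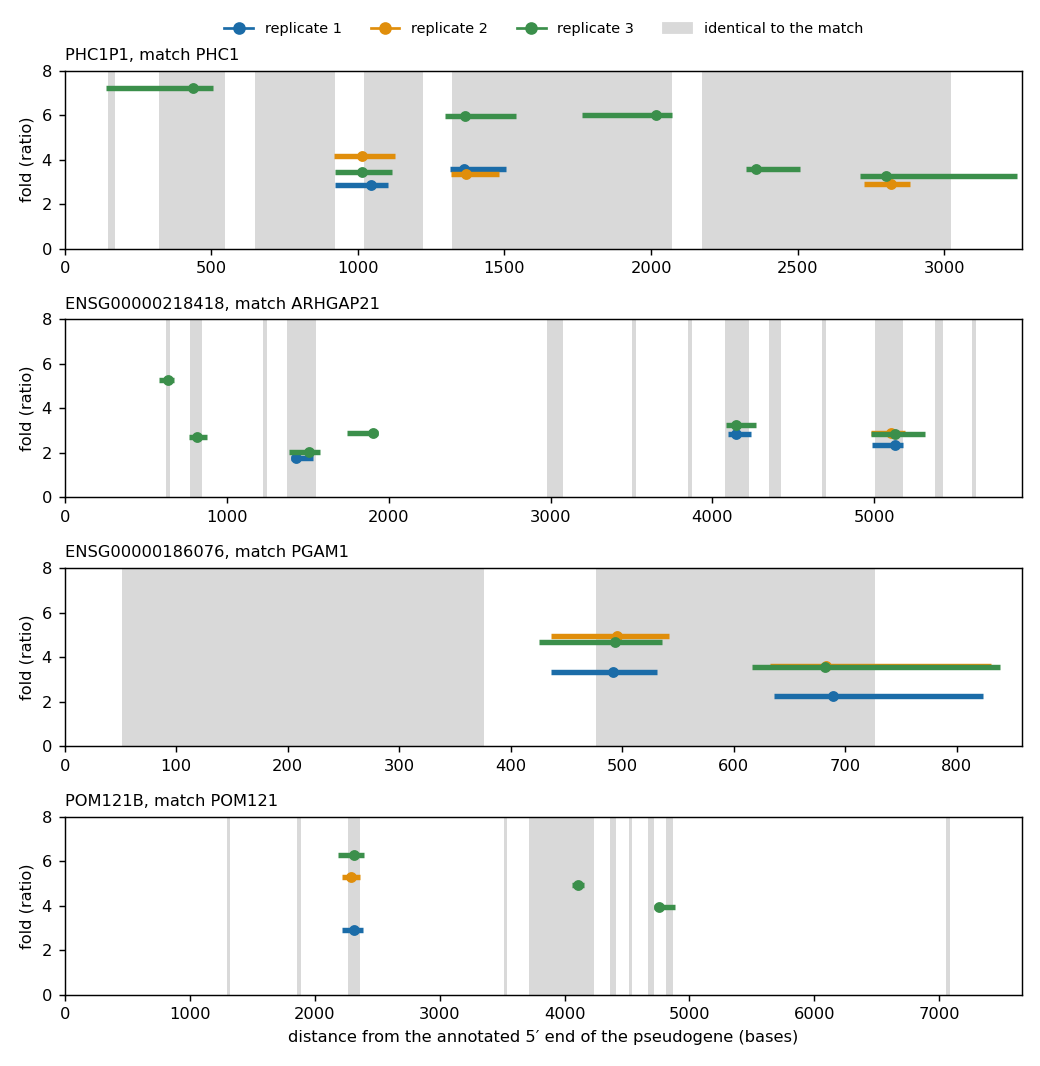
Peaks along 4 pseudogenes that are each related to 1 main protein-coding match, as distance from the annotated 5′ end (bases) against fold enrichment (ratio). Bars span a peak of a list, points mark its summit, and grey marks windows of the same length, taken every 25 bases, that are identical to the match. In PHC1P1 the summits near bases 1013 and 1364 recur in all lists.

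GTF2IP4, ENSG00000218418 and TMEM198B held 10 peaks each, 6 of them in replicate 3, which held 314 of the 501 member peaks. GTF2IP4, a copy of the general transcription factor gene GTF2I in the duplicated Williams-Beuren region of chromosome 7, held 3, 1 and 6 peaks. Its highest-ranked peak had folds of 3.14, 1.50 and 4.40, at summits up to 31632 bases apart. Those of replicates 1 and 3 lay close together, at chr7:73175505 and chr7:73175502, and that of replicate 2 at chr7:73207134. A merged region of 316 bases around the latter place held a peak of every list. The ARHGAP21 copy ENSG00000218418 held 3, 1 and 6 peaks, and its highest-ranked peak had folds of 2.85, 2.88 and 5.27. A peak near base 5100 of its 5914 bases recurred in all lists, with folds of 2.37, 2.88 and 2.85. The highest-ranked peaks of replicates 1 and 3 lay elsewhere, at bases 4144 and 635. CEP170P1, a copy of a centrosomal protein gene, held 0, 1 and 7 peaks. Windows taken every 25 bases were identical to ARHGAP21 in 16.3% of cases over ENSG00000218418, yet each of its 10 summit windows was identical. Over the PGAM1 copy 85.2% of windows were identical to PGAM1, and over PHC1P1 78.2% were identical to PHC1.

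Pseudogene peaks far more often had a close copy than peaks in protein-coding exons did. A close copy is a second place in the genome with at least 95% identity over at least 90 bases of the window. It was found for 84.0%, 53.1% and 82.2% of pseudogene summit windows in replicates 1, 2 and 3, and for 6.95%, 6.32% and 6.30% of windows in protein-coding exons. The log2 ratio was 3.46 ± 0.34 (SD, n = 3), with the same sign in 3 of 3 lists. Having a copy is part of what makes a gene a pseudogene. An identical copy of the whole window was found for 56.6%, 34.6% and 55.7% against 0.904%, 1.04% and 1.17%. The best copy, at 90% identity or more, lay in a protein-coding exon for 283 members, in a pseudogene exon for 99, in an lncRNA exon for 15 and elsewhere for 18. As many as 39 close copies were found for a single window, and 94 members had 5 or more.

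Counting spliced transcripts as well, 308 of the 501 members were identical over the whole window to another genome place or to a protein-coding transcript. This was 66.0%, 40.7% and 65.3% of replicates 1, 2 and 3. Among them, 45 were identical to a transcript and to no other genome place. All 45 spanned an exon junction of that transcript, as they must, since a stretch within 1 exon is itself a genome place. LSM12P1 was one of these in each list. At the other end, 54 members had neither a close copy nor a match, 7, 19 and 28 by list. Unitary pseudogenes had the fewest identical copies, with 12.5%, 0% and 8.70% of their windows. Processed ones had 62.8%, 42.1% and 54.6%, and unprocessed ones 50.0%, 44.4% and 81.1%. Of the 22 pseudogenes with a peak in every list, 18 had an identical window in each list.

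A match was found for 435 of the 501 members, in 197 protein-coding genes. It was identical over the whole window for 273 of them, and the median identity was 100%. The matching base lay in coding sequence for 399 members, in a 3′ UTR for 32 and in a 5′ UTR for 4. For 26 members several genes tied for the best match. A match is the best alignment and need not be the gene that the pseudogene came from. A window of CENPBD1P matched ANGEL1, 1 of TMEM198B matched PLCD3, and those of VN1R83P matched ZNF714. The CENPBD1P and TMEM198B pairs are also counted below among the places with a peak at both.

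Within processed pseudogenes, summits that had a match sat on windows identical to it more often than windows of the same pseudogenes were in general. This comparison was added after the data were seen. Windows were taken every 25 bases along the exons, and each summit was set against the mean of its own pseudogene. Identical windows made up 70.1%, 50.0% and 67.3% at 77, 48 and 226 summits, against 29.9%, 25.8% and 26.8% of all windows. The log2 ratio was 1.17 ± 0.20 (SD, n = 3) and above 0 in 3 of 3 lists. The summits counted here all had a match, out of 78, 57 and 238 processed summits, and 54, 24 and 152 were identical. Windows without an alignment were kept and counted as not identical. Summits took the best match of all transcripts, while windows were set against 1 transcript per pseudogene. Both rules favour identity at the summits, and how much they add to the difference was not tested. Windows that span an exon junction of the match made up 28.6%, 39.6% and 31.4% at summits against 51.5%, 50.0% and 52.8% of all windows, a log2 ratio of −0.65 ± 0.27 (SD, n = 3) with the same sign in 3 of 3 lists. Several summits shared a pseudogene, and several pseudogenes shared a match. Whether read placement had a part in these differences was not tested.

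**Figure D4:**
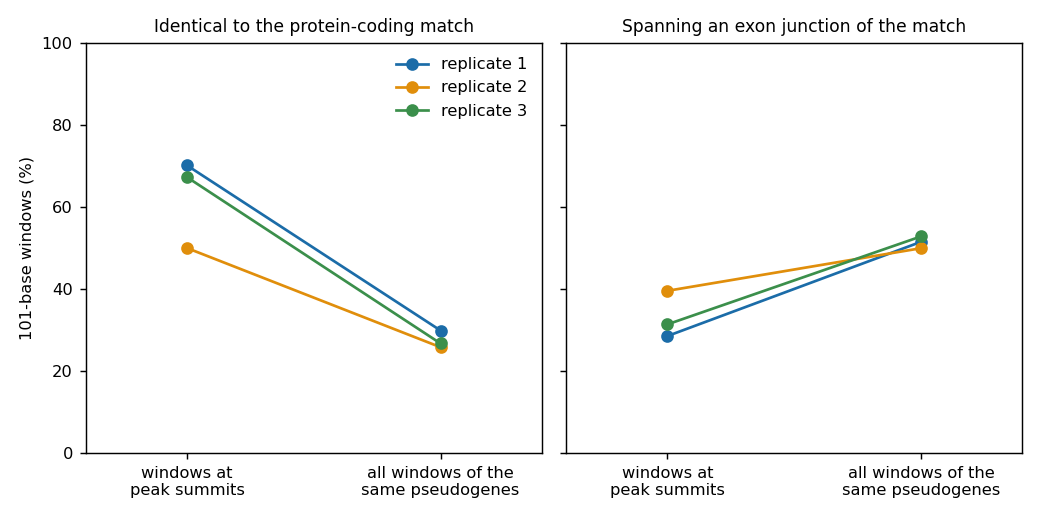
Percent of windows of processed pseudogenes that are identical to the protein-coding match (left) and that span an exon junction of it (right). Values are for peak summits with a match and for all windows of the same pseudogenes, 1 line per list. All 3 lines fall from left to right in the first panel, from 70.1% to 29.9% in replicate 1, and rise in the second.

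The matching place in the protein-coding gene was itself in a peak of the same list for 8 of 96, 3 of 58 and 81 of 281 members with a match, that is 8.33%, 5.17% and 28.8%. Peaks of the same list covered on average 16.9%, 10.5% and 30.5% of the bases of the matching transcripts, so the matching places lay in peaks less often than those transcripts' bases did in each list, with differences of −8.61, −5.34 and −1.65 percentage points. The matching gene had a peak somewhere in its exons for 67.7%, 51.7% and 89.0% of members. Of all 20046 protein-coding genes, 32.2%, 27.5% and 41.4% had an exonic peak in replicates 1, 2 and 3. Members that share a match are counted more than once in the first shares and not in the second.

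Where both places held a peak, neither side led throughout. The fold was higher at the pseudogene in 4 of 8, 1 of 3 and 55 of 81 pairs in replicates 1, 2 and 3. RBMS2P1 was the only pseudogene of the 22 whose matching place lay in a peak in every list. The fold at RBMS2 was 2.33, 4.01 and 3.77, against 2.85, 2.53 and 3.25 at RBMS2P1, so the pseudogene was higher in replicate 1 alone. At its recurring summit WASF4P had such a place in replicates 1 and 3, with 5.27 and 6.38 at WASF2 against 3.28 and 4.14 at the pseudogene. A second summit of WASF4P in replicate 3 went the other way, with 2.25 at WASF2 against 5.69 at the pseudogene. At POM121B the place in POM121 lay in a peak of replicate 3, with a fold of 9.22 against 6.30. For 13 of the 22 no matching place lay in a peak of the same list, KRT42P among them because it had no match.

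**Figure D5:**
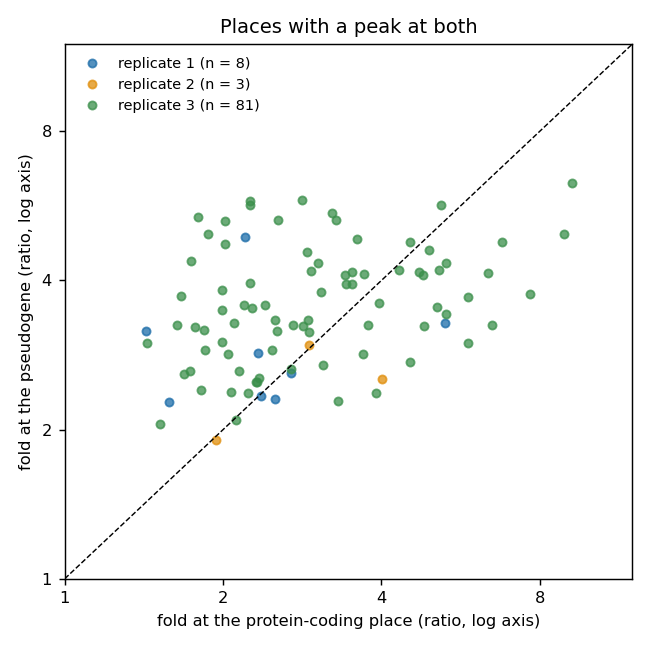
Fold enrichment at the pseudogene against that at the matching protein-coding place, both on log axes, for the 92 members whose matching place lay in a peak of the same list (8, 3 and 81 by list). The dashed line marks equal fold; 60 points lie above it and 32 below.

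The body of a protein-coding or lncRNA gene held 43.4%, 50.6% and 41.1% of pseudogene summits in replicates 1, 2 and 3, although no exon of such a gene did. For processed pseudogenes, 37.2%, 40.4% and 37.4% lay inside a protein-coding gene, against 0%, 22.2% and 3.77% for unprocessed ones. At such places reads from an intron of the host gene and reads from the pseudogene cannot be told apart in an unstranded library. Without them, 18 regions and 11 pseudogenes were left in every list.

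Copies of ribosomal protein genes, the largest family of processed pseudogenes, held 17, 9 and 58 peaks in replicates 1, 2 and 3. Of 1577 annotated, 51 had a peak in any list (3.23%, against 1.81% of all pseudogenes) and 2 had one in every list, RPL7AP6 and RPL7AP66. When members were grouped by match instead, 96 peaks in 60 pseudogenes matched 32 ribosomal protein genes. RPL5 matched 5 pseudogenes with peaks, RPL3 matched 4, and RPL7A, RPL4, RPL7 and RPL21 matched 3 each. RPL3 copies had median folds of 3.16, 3.20 and 4.86 over 1, 3 and 4 peaks of replicates 1, 2 and 3. Those of RPL7A copies were 2.50, 3.46 and 3.42 over 2, 2 and 4 peaks, so RPL7A copies were the higher of the pair in replicate 2.

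Copies of translation factor genes had 12 of 190 members with a peak in any list (6.32%, against 1.81% of all pseudogenes) and EIF4BP6 in every list. EIF4B matched 4 pseudogenes. In replicate 1 the EIF4B copies EIF4BP3 and EIF4BP7 had folds of 3.41 and 3.14, and in replicate 3 they had 2.63 and 3.67, with no peak in replicate 2. EEF1A1, which encodes an abundant elongation factor, matched 5 pseudogenes, and EEF1A1P6 had folds of 2.12 in replicate 1 and 2.03 in replicate 3. All 9 summit windows that matched EIF4B were identical to it.

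The remaining families are also read against the 1.81% of all pseudogenes with a peak in any list. Copies of chaperone and cyclophilin genes had 10 of 227 (4.41%), among them PPIAP6, with folds of 1.82 and 1.96 in replicates 1 and 3. Copies of histone and chromatin protein genes had 9 of 317 (2.84%). In this list H3P6, a copy of the histone gene H3-3A, had 2.51 and 2.50 in replicates 1 and 3. CBX3P9, a copy of a heterochromatin protein gene, had 3.26 and 2.74 in the same lists. The unitary linker histone pseudogene H1-9P had 3.69 and 4.27 in replicates 2 and 3, at separate places, chr17:50181028 and chr17:50171501. Copies of RNA-binding protein genes had 5 of 332 (1.51%, near the share of all pseudogenes), with RBMS2P1 and YBX1P1 in every list. Copies of glycolytic and cytoskeletal genes had 6 of 321 (1.87%, also near it). TUBAP2 had 2.22 and 3.29 in replicates 1 and 3, at separate places, chr11:90282959 and chr11:90283866. KRT8P46 had 2.73 and 3.42 in replicates 2 and 3, also at separate places, chr4:102728855 and chr4:102729972. Zinc finger pseudogenes had 1 of 80 (1.25%), and none of the 398 olfactory receptor or 237 immunoglobulin and T cell receptor pseudogenes had a peak. The exon length of immunoglobulin and T cell receptor types is small, as given above.

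Copies within segmental duplications had 10 of 233 members with a peak (4.29%, against 1.81% of all pseudogenes) and 3 in every list, where 0.15% of all pseudogenes had one. These were GTF2IP4, LRRC37A4P and POM121B. MTX1P1, a copy of a gene of mitochondrial protein import next to its source on chromosome 1, had 2.10 in replicate 1 and 7.40 in replicate 3 and no peak in replicate 2. PI4KAP2, a copy of a phosphatidylinositol kinase gene, had 2.31 and 2.65 in replicates 1 and 3. Nuclear copies of mitochondrial genes had 8 of 403 members with a peak (1.99%, near the share of all pseudogenes). Their median fold was 1.48, 4.01 and 2.77 over 6, 3 and 4 peaks of replicates 1, 2 and 3, against 2.85, 3.11 and 3.24 for all pseudogene peaks, so it was the lower in replicates 1 and 3 and the higher in replicate 2. MTCO1P12, a nuclear copy of the cytochrome oxidase subunit gene MT-CO1, had 3 peaks in replicate 1 and 2 in replicate 3, all with a fold of at most 1.79, and 4 of its 5 summit windows were identical to the mitochondrial gene over their whole length. MTND4P9 had 4.01 and 4.59 in replicates 2 and 3.

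Pseudogenes that have been discussed as regulatory RNAs had 5 of 85 members with a peak (5.88%, against 1.81% of all pseudogenes), DUXAP10 in every list. ANXA2P2, a copy of the annexin A2 gene, had 2.39 and 2.30 in replicates 1 and 3, at separate places, chr9:33625180 and chr9:33624407. PDIA3P1 and RPSAP52 had a peak in 1 list each.

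BEND3P1, a processed copy of a gene for a chromatin repressor, had the highest fold of all members, 17.8 in replicate 3, over a peak 2578 bases wide, and 6.57 in replicate 2. It had no member summit in replicate 1, although the merged region held a peak of every list. Its summit windows matched BEND3 at 81.0% in replicate 2 and had no match in replicate 3. The other members with a fold above 7, named here after their values were seen, were few. KRT42P reached 9.57 in replicate 2. The unitary pseudogene C22orf46P reached 8.55 in replicate 1 and 4.61 in replicate 3, at separate places, chr22:41694265 and chr22:41697964. The unitary kinesin pseudogene KIF28P reached 4.51 and 8.46 in replicates 1 and 2. PBX2P1, a copy of a homeobox gene, had 3.55 and 7.75 in replicates 1 and 3, with summits 3 bases apart in windows identical to PBX2. VN1R83P, an unprocessed vomeronasal receptor pseudogene, had 5.33 and 7.41 in replicates 1 and 3. MTX1P1 and PHC1P1 complete this set with their values in replicate 3. KRT42P, C22orf46P, KIF28P and VN1R83P had no identical copy of their summit window.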

How the data were processed

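DDX5 RIP-seq peaks were analysed from 3 deposited lists, 1 per immunoprecipitate. Per the submitters' processing notes, STAR 2.6.1d, cutadapt 1.11 and MACS2 2.2.7.1 were among the tools and GRCh38 was the build; the control of the peak calls and the treatment of reads with several placements are not given in the sources used here. Fold enrichment is a ratio made by the authors, and the deposited p-values and q-values are on the −log10 scale, with a largest q-value of 0.05. Peaks were ranked and classes compared within a list, and folds of several lists stand side by side, with a mean and SD for some pseudogenes, as a description. Their deposited score was not used. The lists give no depth, and no counting interval was computed.

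Of summits sharing an interval, that with the highest −log10 q was kept, and unplaced contigs were left out. Annotation was GENCODE version 44. Windows of 50 bases on each side of a summit were aligned with BLAST+ 2.17.0 to the genome (word size 28) and to 20046 canonical protein-coding transcripts (word size 11); a match needed at least 80% identity over at least 50 bases that hold the summit. Lists are the replicates; ratios were taken per list and tested with an exact sign-flip permutation test. Calculations ran in Python 3.11.15 with pandas 2.3.3 and were tested on simulated data. The members and the gene lists were chosen with earlier results of these data known. Named pseudogenes are the 10 processed and up to 10 other pseudogenes ranked highest among those with a peak in every list, the 5 with most peaks, up to 4 of each gene list, and BEND3P1 and MTX1P1; the rest of the 22 with a peak in every list and those marked in the text were added after their values were seen. Alternatives were a stricter q or fold, equal list lengths, other overlaps, windows and identities, leaving out a list, host genes or peaks on shared background values. Records without a symbol in the annotation keep their identifier. Some items that the naming rule took are not reported here.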

Additional observations from a re-analysis of the deposited data

How the results depend on the processing

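The sign of the mean of each ratio against protein-coding exons was kept under every alternative tried, except for GC content, but not always in every list. By the exact permutation test, at a fold of at least 4 p was 0.5 for the fold, 0.5 for peaks touching both other lists (−0.78), 0.5 for windows identical to the match and 1 for the width; without replicate 2 it was 1 for touching (−0.33), and at −log10 q of at least 5 it was 0.75 for GC content. At −log10 q of at least 5, the share in processed types was 76.4%, and 14 regions and 13 pseudogenes were found in every list. At a fold of at least 4, the mean number of peaks was 35.3, the processed share 58.9% and the share inside other genes 35.0%. There 2 regions and 0 pseudogenes recurred in every list, the GC difference turned to −2.97 and the log2 ratio of processed to unprocessed folds to 0.017. Without peaks on shared background values (a fold and p found together in 10 or more peaks of a list), the mean was 62.7, the processed share 76.6%, and 10 regions and 9 pseudogenes recurred, with a processed to unprocessed log2 ratio of 0.11. Without summits inside other genes, the mean was 95, the share of all peaks 0.276%, the processed share 65.0%, and 18 regions and 11 pseudogenes recurred. Reciprocal overlap of 50% left 16 regions and summits within 100 bases 17. Leaving out each list in turn gave 93.5 to 210 peaks per list, 34 to 78 regions and 26 to 64 pseudogenes. The cause of these shifts was not tested. Stricter settings leave a smaller number of peaks. No paired analysis was possible because the files used here hold values of the immunoprecipitates alone, so that no 2 groups were compared. With 3 lists of unknown depth, the exact permutation test could not go below p = 0.25.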
